A study of Mus musculus with 23 samples.

Results

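The transcripts of 10 genes for secreted Wnt signalling proteins were followed through 19 samples of mouse embryonic stem cells (ESCs). They were 6 Wnt ligands (Wnt3, Wnt4, Wnt6, Wnt7b, Wnt8a and Wnt10b) and 4 secreted antagonists (Dkk1, Dkk2, Sfrp1 and Sfrp2), out of 55573 genes in the count tables. The 10 genes were chosen by their values in these same samples, so their levels and fold changes between the compared groups are given as a description. Where the number of them past a threshold is printed, it stands beside the share of all genes and is not read as a test. Polyadenylated RNA was measured by QuantSeq, which reads 1 tag near the 3′ end of a transcript, and a level is given in CPM, the share of a sample's counts that a gene takes, scaled by TMM to allow for differences in composition. The R1 line of mouse ESCs was studied as wild type (WT) and as SET knockout (KO, genotype SET-/-). SET is a histone chaperone and an inhibitor of the phosphatase PP2A. Set 1 held 2 WT, 2 KO1 and 2 KO2 samples, and set 2 the same numbers. In set 2, 1 WT and 2 KO samples had been treated with retinoic acid (RA) for 4 days, and both KO samples were titled KO1. KH2 ESCs with a SETa-HA transgene that doxycycline (Dox) induces gave 2 samples without Dox and 2 after 24 h at 1 µg/mL. All cultures were grown on mouse embryonic fibroblast (MEF) feeders with serum and LIF per the labels, and no source used here says whether RA cultures kept them. The labels do not say that samples of a group came from separate cultures, so standard errors and p-values cover no more than the spread among the samples at hand, which may be technical. The sources used here do not say if set 1 and set 2 share their KO1 and KO2 clones.

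Wnt proteins are lipid-modified ligands that bind Frizzled receptors, with LRP5 or LRP6 as co-receptor in the canonical branch, where the signal stabilises β-catenin and lets it act with TCF/LEF factors on target genes. Dickkopf proteins such as DKK1 bind LRP5 and LRP6, and secreted Frizzled-related proteins (SFRPs) bind Wnt ligands outside the cell. In mouse ESCs canonical Wnt signalling is known to favour self-renewal, while in the early embryo Wnt3 is needed for the primitive streak. The series' title names β-catenin as a partner of SET, which is the question these comparisons bear on.

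Samples held 806412 to 1445013 counts in set 1, 2833064 to 10217040 in untreated set 2, 3904924 to 5047363 after RA and 4848478 to 6472695 in KH2. The level that 3 counts give, used as the floor, was therefore 2.08 to 3.72 CPM in set 1 and 0.294 to 1.06 CPM in untreated set 2, and set 1 could not resolve the lowest levels. Set transcripts stood at 977 and 1020 CPM in set 1 WT and at 17.3 to 25.9 in set 1 KO, but at 1191 and 1401 in set 2 WT and still at 272 to 562 in set 2 KO. After RA they stood at 559 CPM in WT and at 185 and 271 in KO, and in KH2 at 1016 and 954.5 CPM without Dox and 1263 and 1119 CPM with it. No label says whether the transgene's transcript ends in the counted 3′ part of Set. The sources used here do not name the edited part of Set, and a 3′ tag outside it checks nothing about the edit. The summed level of 9 ESC markers was 3391 to 3753 CPM in set 1 WT, 1516 to 1854 in set 1 KO, 2471 to 2734 in set 2 WT, 1658 to 1909 in set 2 KO, 276 to 322 after RA and 3756 to 4721 in KH2. All 9 were detected in every group. The untreated libraries of set 2 split along their main axis of variation (33.9% of the variance once group means were removed) into 5 libraries here called group A and 5 called group B, a split found in the data and named by no label. Group A gave 70.0% of the counts of set 2 WT but 39.5% of those of set 2 KO, so set 2 values are also given within A and within B.

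**Figure D1:**
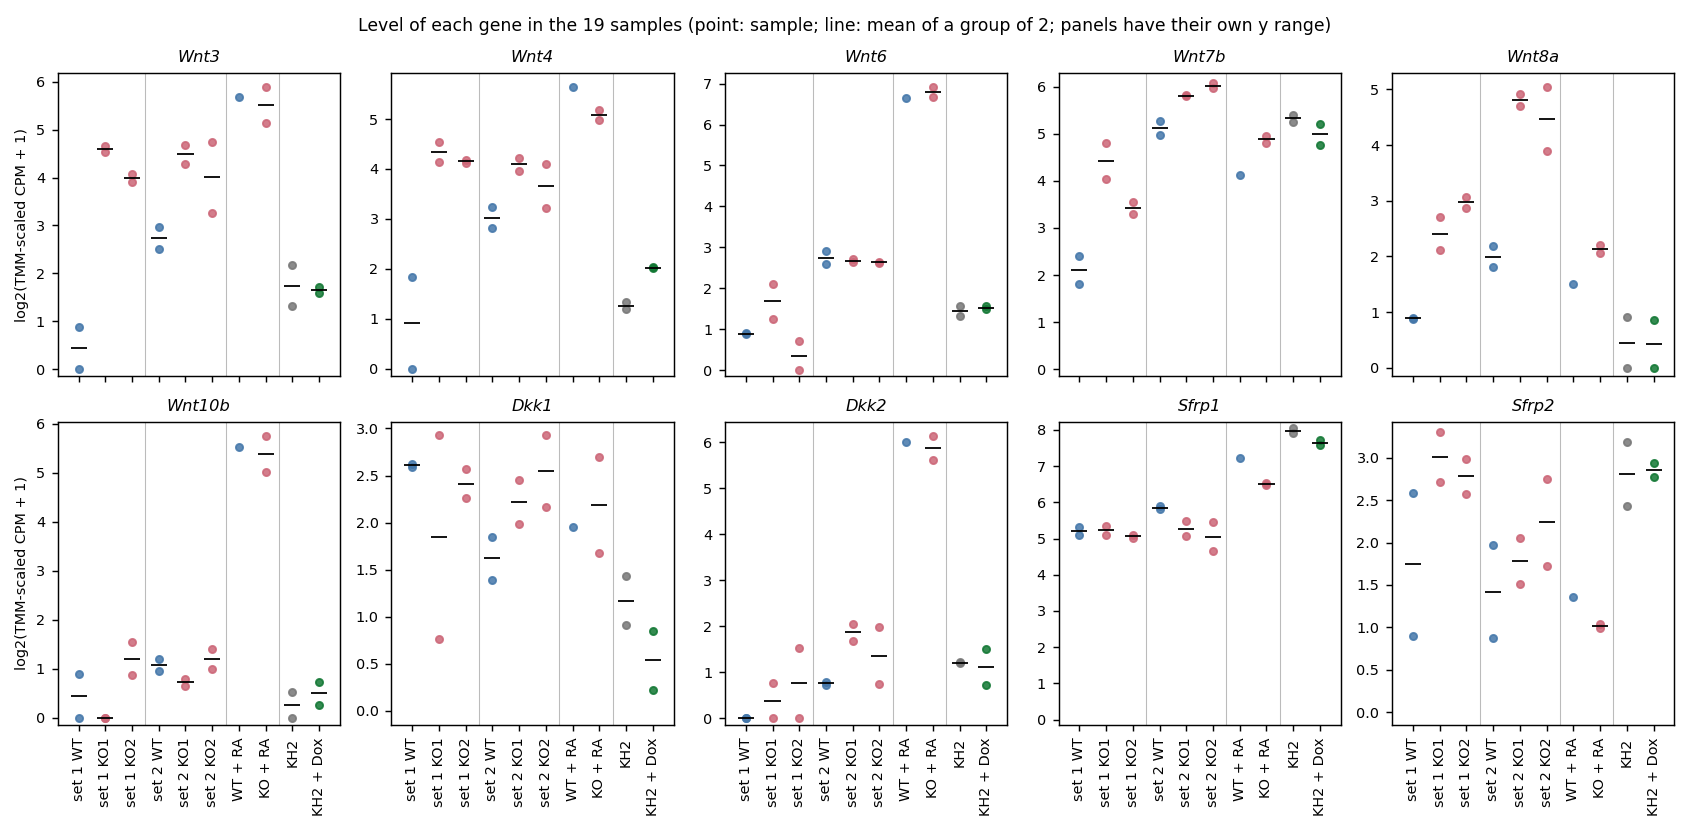
Each panel shows 1 gene, with log2(CPM + 1) on the y axis and the 10 groups on the x axis (blue WT, red KO, grey KH2, green KH2 with Dox). Each point is a sample and each line the mean of a group of 2 samples. The means of Wnt3, Wnt4 and Wnt8a are higher in KO than in WT of both sets, and Wnt6, Wnt10b and Dkk2 stand apart in the RA samples alone.

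In SET-knockout ESCs 4 Wnt ligand transcripts were higher than in WT in both sets: Wnt3, Wnt4, Wnt8a and Wnt7b. In set 1 WT 3 of them (Wnt3, Wnt4 and Wnt8a) had no more than the 3 counts of the floor. Sfrp1 was lower in KO of set 2 but not of set 1. The other 5 genes were low in untreated cells and did not separate the genotypes in both sets.

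Wnt3, the ligand gene needed for primitive streak formation, lies at chr11:103774150-103817957 (plus strand, GRCm38). It stood at 0.836 and 0 CPM in the set 1 WT samples. It reached 22.1 and 24.3 CPM in KO1 and 14.0 and 15.8 CPM in KO2 of set 1. The 4 KO samples were all above both WT samples, and the WT pair rested on 1 count. The ratio of summed counts, 97 in KO against 1 in WT and corrected for depth, was 44.4 with a 95% counting interval of 7.79 to 1773. In set 2 WT, Wnt3 stood at 6.78 and 4.69 CPM. It was 24.7 and 18.6 CPM in KO1 and 25.95 and 8.59 CPM in KO2 of set 2. Again no KO sample overlapped WT, although sample 2f of KO2 was far below the other 3. Of the set 2 KO samples, 2f was the only one that came from library group A alone. The fitted log2 fold change was 1.88 ± 0.36 (SE) in set 2 and 2.24 ± 0.39 over both sets.

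Wnt4, a ligand gene best known from kidney and gonad development, lies at chr4:137277489-137299726 (plus strand). Its levels were 0 and 2.58 CPM in set 1 WT, 22.1 and 16.6 CPM in KO1 and 16.45 and 17.05 CPM in KO2. The ratio of 91 KO counts to 3 WT counts was 13.9 (95% counting interval 4.61 to 68.6). In set 2 they were 8.40 and 6.04 CPM in WT, 17.7 and 14.7 CPM in KO1 and 16.2 and 8.26 CPM in KO2. Sample 2f of KO2 fell between the WT samples, so the groups overlapped there. As log2 fold changes these were 1.07 ± 0.29 in set 2 and 1.51 ± 0.33 over both sets. Across the 19 samples Wnt3 and Wnt4 followed each other more closely than did most pairs among the 10 genes, with Pearson's r = 0.931 of log2(CPM + 1), where the samples share their depth and composition.

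The sequences before the start sites of Wnt3 and Wnt4 are shown because these 2 genes moved together. They are the 250 bases upstream of the RefSeq start on GRCm38.p6, read 5′ to 3′ on the gene's strand at chr11:103773925-103774174 and chr4:137277385-137277634. Capitals mark a TCF/LEF core (CTTTGA or CTTTGT) or a GC box (GGGCGG), searched on both strands.
Wnt3: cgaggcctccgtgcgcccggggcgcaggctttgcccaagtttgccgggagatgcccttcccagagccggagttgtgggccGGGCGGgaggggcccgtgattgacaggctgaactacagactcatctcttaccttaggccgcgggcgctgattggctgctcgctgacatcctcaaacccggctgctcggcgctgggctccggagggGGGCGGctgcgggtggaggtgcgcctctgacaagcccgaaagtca
Wnt4: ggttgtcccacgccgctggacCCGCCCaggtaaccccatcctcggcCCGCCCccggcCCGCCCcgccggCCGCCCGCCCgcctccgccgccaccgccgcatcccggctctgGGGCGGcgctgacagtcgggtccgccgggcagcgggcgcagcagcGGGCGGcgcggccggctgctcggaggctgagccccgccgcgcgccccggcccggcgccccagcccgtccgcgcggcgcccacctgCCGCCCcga
In the window of 300 bases, 250 before to 50 after the start, Wnt3 held 1 TCF/LEF core, and it lay after the start at position 19, within these 30 bases at chr11:103774181-103774210.
Wnt3 site: acctcaagtggaCTTTGTtccaactattgg
Wnt4 held no TCF/LEF core and 8 GC boxes, a pair of which overlap, and Wnt3 held 2 GC boxes. The core occurred in 31.2% and the GC box in 35.7% of all 32851 promoter windows of that length. The Wnt4 window was 84.3% G or C and the Wnt3 window 65.7%, against a median of 52.7% (quartiles 45.7% and 61.7%) over all windows. Of the 10 genes, 7 had an entry in the promoter table, and Wnt7b, Wnt8a and Sfrp1 had none. A match to these letters is a description of the sequence and not a bound site.

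Wnt8a, a ligand gene expressed in the early streak of the embryo, lies at chr18:34542313-34548273 (plus strand). It was at 0.836 and 0.861 CPM in set 1 WT, under the floor, and at 3.32 to 7.40 CPM in the 4 set 1 KO samples. With 30 KO counts against 2 WT counts, the ratio was 6.87 (95% counting interval 1.74 to 59.3), too few counts for the fit. In set 2 it was at 3.55 and 2.501 CPM in WT, 29.15 and 25.05 CPM in KO1 and 31.8 and 13.9 CPM in KO2. All 4 set 2 KO samples were above both WT samples, the lowest being 2f. The log2 fold change was 3.17 ± 0.34 in set 2 and 3.10 ± 0.31 over both sets.

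Wnt7b, a ligand gene of lung, placenta and kidney development, lies at chr15:85535437-85582473 (minus strand). It was at 2.51 and 4.31 CPM in set 1 WT, 15.5 and 27.0 CPM in KO1 and 10.7 and 8.84 CPM in KO2. In set 2 it was at 30.7 and 37.5 CPM in WT, 55.7 and 54.6 CPM in KO1 and 66.4 and 61.5 CPM in KO2. KO and WT did not overlap in either set, yet both WT samples of set 2 were above every KO sample of set 1. Fitted log2 fold changes were 2.16 ± 0.57 in set 1 and 0.79 ± 0.15 in set 2. Wnt7b shares 324 of its 4898 exon bases with the gene AU022754 on the other strand, which had 2 counts in all samples together.

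Among the antagonists, Sfrp1, whose product binds Wnt ligands, was at 33.4 and 38.8 CPM in set 1 WT and at 31.3 to 39.8 CPM in set 1 KO, and these ranges overlapped. In set 2 it was at 55.2 and 58.45 CPM in WT, 32.5 and 43.6 CPM in KO1 and 42.9 and 24.1 CPM in KO2. All 4 set 2 KO samples were below both WT samples. The log2 fold change was -0.07 ± 0.23 in set 1 and -0.63 ± 0.18 in set 2, and whether the sets differ was not tested. Sfrp2, its relative, ranged from 0.861 to 5.02 CPM in set 1 WT and from 4.94 to 8.85 CPM in set 1 KO, and from 0.834 to 2.91 CPM in set 2 WT and 1.85 to 5.71 CPM in set 2 KO, with overlap in both sets. Its log2 fold change over both sets was 1.17 ± 0.44. Dkk1, the LRP-binding antagonist and a known β-catenin target, was at 5.02 and 5.17 CPM in set 1 WT and at 0.693 to 6.64 CPM in set 1 KO. It was at 1.62 and 2.61 CPM in set 2 WT and at 2.95 to 6.61 CPM in set 2 KO, where the ranges did not overlap. The log2 fold change of Dkk1 over both sets was 0.47 ± 0.39. Dkk1 held 3 TCF/LEF cores in its promoter window, at positions -174, -117 and -98 from the start. Dkk2 had 0 counts in set 1 WT and 4 in set 1 KO, and ranged from 0.646 to 0.729 CPM in set 2 WT and from 0.661 to 3.16 CPM in set 2 KO.

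Wnt6 was at 5.001 and 6.46 CPM in set 2 WT and at 5.15 to 5.53 CPM in set 2 KO, inside the WT range. Its log2 fold change there was -0.06 ± 0.31. Wnt10b stayed at or under 1.89 CPM in every untreated R1 sample, with 14 counts in all WT and 21 in all KO samples, and no fold is given.

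Counted by the call rule, an adjusted p under 0.05 over all genes tested, 4 of the 8 fitted genes were higher and 1 lower in KO over both sets, where 10.4% of all genes tested were higher and 8.63% lower. In set 1, 3 of the 4 fitted genes were higher and 0 lower, beside 7.19% and 5.1% of all genes. In set 2, 4 of the 9 fitted genes were higher (Wnt8a, Wnt3, Wnt4 and Wnt7b) and 1 lower (Sfrp1), beside 5.64% and 3.55%. As the genes were chosen by these contrasts, nothing is read from these counts. The median log2 fold change over both sets was 1.08 for the 8 fitted genes and -0.018 for all genes tested. That median follows from the same choice, and nothing is read from it either. Leaving out 1 sample, the Wnt7b call of set 1 was lost without 1a, 1b or 1c. In set 2 the Wnt4 call was lost without 2a, 2b, 2c, 2d or 2e, the Wnt3 call without 2b, and the Sfrp1 call without 2a, 2b or 2c. Over both sets the Sfrp1 call was lost without any 1 of 9 samples. With each library as its own sample, Wnt4 and Sfrp1 were not called in set 2. Over both sets Sfrp1 was then not called either, nor in DESeq2. In library group A alone 1 of 6 fitted genes was higher (Wnt8a) and 0 lower, beside 2.45% and 1.61% of all genes. In B alone 3 of 8 were higher (Wnt3, Wnt7b and Wnt8a) and 0 lower, beside 7.27% and 6.4%.

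Within the library groups of set 2 the direction of Wnt3, Wnt4, Wnt7b and Wnt8a was the same and the size was not. Wnt3 ranged from 4.08 to 7.03 CPM in the 2 WT libraries of group A and from 7.99 to 11.5 CPM in the 3 KO libraries, a ratio of means of 1.68. In group B it ranged from 6.46 to 6.56 CPM in WT and from 22.7 to 31.5 CPM in KO, a ratio of 4.03. The KO libraries of A and B did not overlap, whereas the WT libraries did. Wnt8a showed the same, with ratios of 3.09 in A (WT 2.11 to 4.92 CPM, KO 5.81 to 13.8 CPM) and 11.1 in B (WT 2.35 to 3.75 CPM, KO 29.0 to 39.95 CPM). Wnt7b had ratios of 1.52 in A and 2.36 in B, where the WT libraries were the lower ones in B. Wnt4 went the other way, with ratios of 2.63 in A and 1.48 in B. Libraries of KO and WT did not overlap for these 4 genes in either group, with 2 WT and 3 KO libraries each. The share of all genes without overlap was not counted. The 4 genes were chosen by this contrast, and libraries of 1 title are not separate samples, so nothing is read from this. Of Sfrp1, the KO libraries lay below both WT libraries in A (23.9 to 55.2 against 58.5 to 59.7 CPM) and in B (32.3 to 48.0 against 50.5 to 54.8 CPM). The libraries of title 2d, and those of 2e, split between A and B. The 2 libraries of 1 title thus differed in Wnt3, with 7.99 against 31.5 CPM in 2e and 11.5 against 22.7 CPM in 2d. Sample 2f, the lowest set 2 KO sample for Wnt3, Wnt4 and Wnt8a, was a single library of group A. Its library levels were 8.53, 8.20 and 13.8 CPM for these genes, and it is 1 of the 3 KO libraries that set the group A ranges. The group A libraries of 2d and 2e were at 11.5 and 7.99 CPM for Wnt3. They were at 11.5 and 12.3 CPM for Wnt4 and at 12.9 and 5.81 CPM for Wnt8a.

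**Figure D2:**
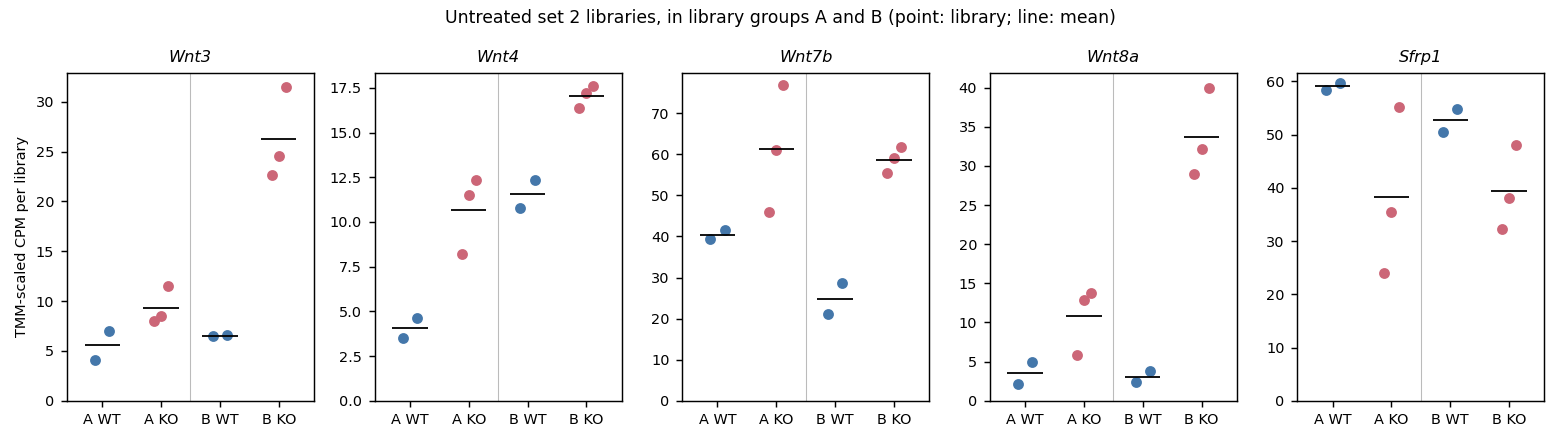
CPM of 5 genes in each untreated set 2 library (points), with WT in blue, KO in red and the mean as a line, in library groups A and B along the x axis. KO libraries of Wnt3 and Wnt8a reach 11.5 and 13.8 CPM at most in A but start at 22.7 and 29.0 CPM in B, and in both groups they are above WT.

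Markers of other cells differed between the genotypes as well, though not all lists rose in both sets. The summed level of 24 feeder fibroblast markers was 160.5 to 193 CPM in set 1 WT and 496 to 730 CPM in set 1 KO, and 384 to 469 CPM in set 2 WT and 611 to 725 CPM in set 2 KO. Over both sets 8 of 17 fitted fibroblast markers rose and 0 fell, among them the collagen genes Col1a1 and Col1a2. Of the 24 markers 6 were at 0 in set 1 WT and 1 in set 1 KO. The summed level of 9 streak and mesoderm markers was 9.48 to 10.9 CPM in set 1 WT and 45.2 to 50.5 CPM in set 1 KO, but 60.4 to 61.8 CPM in set 2 WT and 51.2 to 167.5 CPM in set 2 KO, where 2f was again the lowest. T, the brachyury gene, was at 0 counts in set 1 WT and at 8.85 to 15.9 CPM in set 1 KO. Of the streak and mesoderm markers 3 of 3 fitted were called higher in set 1 and 0 of 7 in set 2. Of 13 fitted extraembryonic endoderm markers 10 rose, and of 7 trophectoderm markers 5 rose, over both sets. Of 4 fitted neural markers 1 rose and 2 fell. The neural list summed to 61.9 to 75.8 CPM in set 1 WT and 104 to 136 CPM in set 1 KO. In set 2 it was the other way, at 158 to 163 CPM in WT and 124 to 142 CPM in KO. The part of these cells in the Wnt values was not tested, and in bulk samples fewer cells of a type and less RNA per cell cannot be told apart.

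The 2 KO lines were also compared with each other. This contrast is not free of the choice of genes. The fits of KO against WT pool both lines, so genes with a clear difference there tend to differ little between lines. None of the 4 fitted genes in set 1, and none of the 9 in set 2, differed between KO2 and KO1 at an adjusted p under 0.05 in edgeR's quasi-likelihood test, nor in DESeq2. At an unadjusted p under 0.05 the counts were 1 (Wnt7b) and 0. Few genes of any kind did: 0.0102% were higher and 0% lower in KO2 of set 1, and 0% higher and 0.0237% lower in KO2 of set 2. Wnt7b in set 1 had the widest gap, with 9.77 CPM in KO2 against 21.3 in KO1, a log2 fold change of -1.15 ± 0.39 (95% interval -1.92 to -0.38, adjusted p = 0.637 by edgeR). In set 2 the difference of Wnt7b was 0.22 (interval -0.1 to 0.53, adjusted p = 0.92 by edgeR). Wnt3 was lower in KO2 in both sets by point estimate, -0.62 (interval -1.3 to 0.07) in set 1 and -0.22 (interval -0.9 to 0.46) in set 2, and neither passed. In set 2 the lines differed in their mix of library groups A and B, for which this contrast held no term. Within A, Wnt3 was at 7.99 and 8.53 CPM in KO2 libraries and 11.5 CPM in KO1. Within B it was at 31.5 CPM in KO2 and at 24.6 and 22.7 CPM in KO1, the other direction. The intervals of Wnt3 and Wnt7b in set 1 and of Dkk1, Dkk2 and Sfrp2 in set 2 reach past 1 on the log2 scale, so a difference of that size is not resolved for them. The other 8 of the 13 intervals lay within 1 in both directions.

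RA for 4 days gave the highest levels of 5 of the 10 transcripts in this series. Wnt6, Wnt10b and Dkk2 went from a few CPM or less to between 31.5 and 119.1 CPM in WT and KO alike, Wnt3 and Wnt4 were above their level in every untreated KO sample, and Sfrp1 was higher than in untreated R1 cells. Wnt7b was lower after RA in both genotypes, and Wnt8a was lower in KO, where it had been high. The WT arm after RA is a single sample, whose spread the fit takes from the other groups. Both KO RA samples are titled KO1, whereas the untreated KO values and the KO folds take KO1 and KO2 together.

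Wnt6, a ligand gene of surface ectoderm and somite epithelium, lies at chr1:74771892-74785322 (plus strand). It stood at 6.46 and 5.001 CPM in untreated WT and 99.8 CPM in the WT RA sample. In KO it stood at 5.15 to 5.53 CPM untreated and at 100.9 and 119.1 CPM after RA. The log2 fold change was 4.18 ± 0.23 in WT and 4.34 ± 0.17 in KO, and the RA samples were far outside the untreated range. Wnt10a, its neighbour 6193 bases away, was at 2.62 CPM in the WT RA sample and a mean of 2.05 CPM in KO RA. Its untreated means were 0.641 CPM in WT and 0.736 CPM in KO, and neither difference passed. Wnt10b, a ligand gene known from bone and mammary gland, lies at chr15:98770712-98778150 (minus strand). It stood at 1.29 and 0.938 CPM in untreated WT and at 44.8 CPM after RA. In KO it was at 0.557 to 1.66 CPM untreated and at 31.5 and 52.7 CPM after RA. Its log2 fold changes, 5.39 ± 0.40 in WT and 5.42 ± 0.30 in KO, start from 13 and 17 counts. Its neighbour Wnt1, 11706 bases away, was at 2.10 CPM in the WT RA sample against a mean of 0.370 CPM untreated. In KO its means were 0.610 CPM after RA and 0.0464 CPM untreated. The log2 fold changes of Wnt1, 2.34 ± 1.21 in WT and 3.33 ± 1.55 in KO, rest on few counts and did not pass.

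Dkk2, the antagonist gene at chr3:132085292-132180304 (plus strand), whose product can bind LRP5 and LRP6 as DKK1 does, was at 0.646 and 0.729 CPM in untreated WT and at 63.1 CPM after RA. In KO it was at 0.661 to 3.16 CPM untreated and at 47.9 and 69.15 CPM after RA. The log2 fold change was 6.41 ± 0.40 in WT, from 9 untreated counts, and 4.54 ± 0.25 in KO, from 41. Dkk2 levels after RA in the 2 genotypes overlapped. Its family member Dkk1 did not follow: it was at 1.62 and 2.61 CPM untreated and 2.88 CPM after RA in WT, and at 2.95 to 6.61 CPM untreated and 2.19 and 5.48 CPM after RA in KO.

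The 250 bases upstream of these 3 RA-associated genes are shown for the same reason as those of Wnt3 and Wnt4, with the same capitals. They lie at chr1:74771642-74771891 for Wnt6, chr15:98778151-98778400 for Wnt10b and chr3:132085042-132085291 for Dkk2, on GRCm38.p6.
Wnt6: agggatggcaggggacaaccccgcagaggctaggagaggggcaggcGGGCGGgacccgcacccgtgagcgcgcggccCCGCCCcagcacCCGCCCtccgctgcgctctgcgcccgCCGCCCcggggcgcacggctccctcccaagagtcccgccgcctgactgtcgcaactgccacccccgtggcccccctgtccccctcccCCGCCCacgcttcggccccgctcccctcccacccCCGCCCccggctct
Wnt10b: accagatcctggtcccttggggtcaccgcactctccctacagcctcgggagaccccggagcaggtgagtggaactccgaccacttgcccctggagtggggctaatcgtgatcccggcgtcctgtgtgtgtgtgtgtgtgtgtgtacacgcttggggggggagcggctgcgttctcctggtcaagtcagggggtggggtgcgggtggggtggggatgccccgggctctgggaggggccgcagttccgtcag
Dkk2: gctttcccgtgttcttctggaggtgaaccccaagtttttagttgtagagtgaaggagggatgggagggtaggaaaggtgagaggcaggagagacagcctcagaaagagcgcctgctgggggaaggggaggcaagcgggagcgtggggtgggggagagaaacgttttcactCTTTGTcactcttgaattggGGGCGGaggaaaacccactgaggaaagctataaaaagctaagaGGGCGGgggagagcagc
Dkk2 held 1 TCF/LEF core, at position -80, and 2 GC boxes, Wnt6 held 6 GC boxes and no core, and Wnt10b held neither. The letters AGGTCA, a half-site bound by nuclear receptors, were in 16.3% of all windows and in none of the 7 windows of the 10 genes, which says only that these letters are not in these windows.

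Wnt3 reached 50.5 CPM in the WT RA sample, from 6.78 and 4.69 CPM untreated, a log2 fold change of 3.22 ± 0.52. In KO it was at 34.3 and 58.2 CPM after RA and at 8.59 to 25.95 CPM before, a log2 fold change of 1.19 ± 0.33. The untreated KO1 samples alone were at 24.7 and 18.6 CPM. Wnt4 reached 48.7 CPM in WT from 8.40 and 6.04 CPM, a log2 fold change of 2.82 ± 0.30. In KO, Wnt4 was at 35.5 and 30.4 CPM after RA and 8.26 to 17.7 CPM before, a log2 fold change of 1.17 ± 0.21. The smaller fold in KO started from a higher level, and the levels after RA of Wnt3 spanned those of WT while those of Wnt4 lay below it. Sfrp1 was at 147.4 CPM in the WT RA sample and at 87.35 and 91.7 CPM in KO RA, with log2 fold changes of 1.35 ± 0.20 and 1.25 ± 0.15.

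Wnt7b was at 16.5 CPM in the WT RA sample against 30.7 and 37.5 CPM untreated, and at 26.9 and 30.15 CPM in KO RA against 54.6 to 66.4 CPM untreated. Its log2 fold change was -1.09 in both genotypes (SE 0.24 in WT and 0.15 in KO). Wnt8a was at 3.59 and 3.16 CPM in KO RA, down from 13.9 to 31.8 CPM, with a log2 fold change of -2.92 ± 0.33. In WT, where it had been at 3.55 and 2.501 CPM, it was at 1.83 CPM after RA. Sfrp2 was at 1.57 CPM in the WT RA sample and at 0.997 and 1.05 CPM in KO RA.

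All 10 genes could be fitted in the RA contrasts. In WT 6 were called higher and 1 lower, where 24.8% of all genes tested were higher and 22.5% lower. In KO 6 were higher and 3 lower, beside 28.3% and 26.8% of all genes. As these contrasts too were used to choose the genes, nothing is read from the counts. Without 2i the Wnt3 call in KO was lost, and the Sfrp2 call in KO was lost without 2d, 2e, 2h or 2i. With KO1 alone as the untreated control, Sfrp2 was not called in KO either. The WT and KO contrasts use separate samples, but the difference of their folds was not tested. Fibroblast markers stood beside these values at 7210 CPM in the WT RA sample and 6673 to 7901 CPM in KO RA, with 19 of 21 fitted markers higher in WT and 20 of 21 in KO. Whether feeders or differentiated cells gave the Wnt6, Wnt10b and Dkk2 tags was not tested. In KH2 samples without Dox the fibroblast markers summed to 1199 and 1211 CPM, above untreated R1 cells and far below the RA samples. Single markers differed in this. Mean Col1a1 was 535 CPM there against 385 in WT RA and 382 in KO RA, and Col1a2 113 against 94.3 and 82.8, whereas Col3a1 was 23.5 against 129 and 131. In these KH2 samples Wnt6 was at 1.49 and 1.97 CPM, Wnt10b at 0 and 0.438 CPM and Dkk2 at 1.28 and 1.32 CPM. Any bearing of these values on the feeders was not tested.

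**Figure D3:**
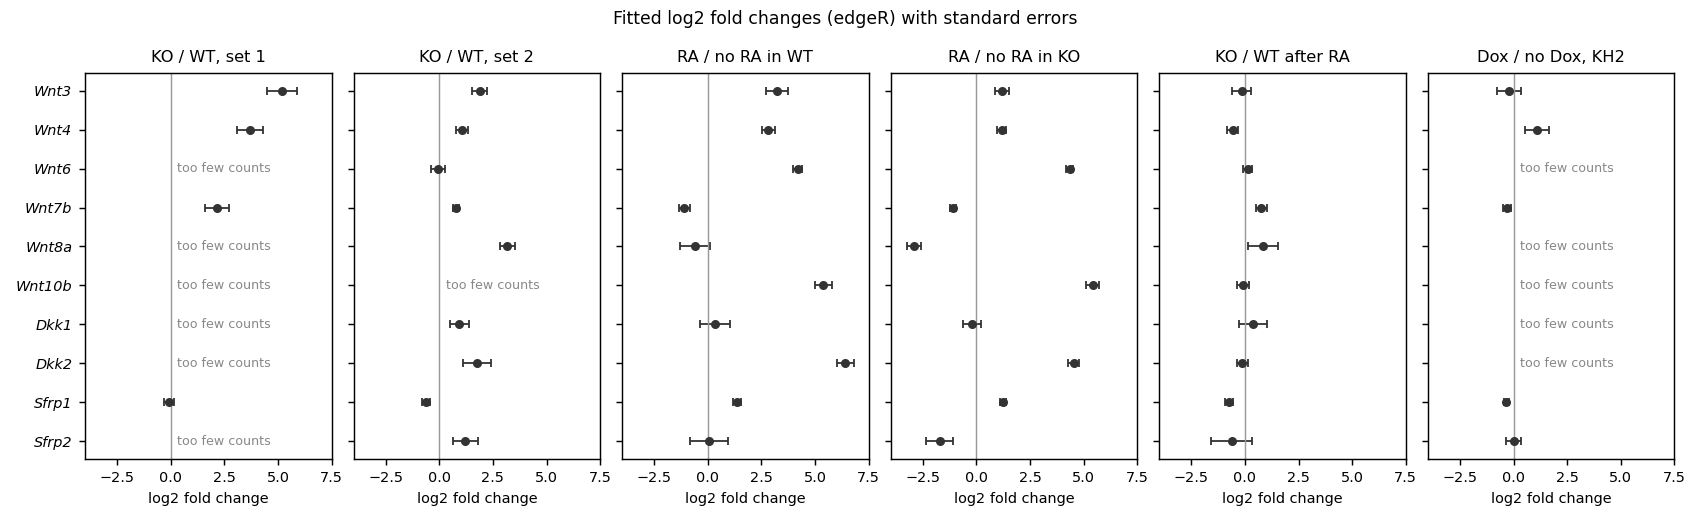
Fitted log2 fold change (x axis) with its standard error for each of the 10 genes (y axis) in 6 comparisons. Genes with too few counts for the fit are marked as such, and the Wnt3 and Wnt4 values of set 1 rest on 1 and 3 WT counts. Dkk2, Wnt10b and Wnt6 lie at 4.18 or more in both RA panels, and no gene lies beyond 1.11 in the panels of KO against WT after RA and of Dox.

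After RA the fitted log2 differences between KO and WT lay between -0.74 and 0.85 for the 10 genes. None was called higher or lower, beside 0.287% and 0.109% of all genes tested, and nothing is read from that count. For Sfrp1 this depended on the setting: it was called lower in KO with no low-count filter, and without 2e or 2f. Both KO samples were above the single WT sample for Wnt7b, at 26.9 and 30.15 against 16.5 CPM (log2 fold change 0.77 ± 0.24), for Wnt8a, at 3.59 and 3.16 against 1.83 CPM (0.85 ± 0.69, on 33 and 7 counts), and for Wnt6, at 100.9 and 119.1 against 99.8 CPM (0.12 ± 0.19). Both were below it for Sfrp1 (-0.74 ± 0.20), Wnt4 (-0.58 ± 0.27) and Sfrp2 (-0.62 ± 0.97). For Wnt3, where KO spanned WT, the log2 difference was -0.15 ± 0.44. Extraembryonic endoderm markers summed to 2275 and 2453 CPM in KO RA against 1215 CPM in WT RA, and 7 of 14 fitted ones were called higher, among them Gata4, Sox17 and Foxa2, as was 1 of 8 trophectoderm markers, Krt8. The part of such cells in these differences was not tested. A single WT sample limits this comparison, and a value that does not pass is no sign that the genotypes are alike.

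With SETa induced in KH2 cells for 24 h, the fitted log2 differences of 5 genes lay between -0.33 and 1.11. None was called, beside 0.896% of all genes tested called higher and 0.904% lower, and nothing is read from that count. Sfrp1 had its highest levels of the series in these cells, at 239.4 and 264.1 CPM without Dox and 190.8 and 208.4 CPM with it, and the 2 ranges did not overlap (log2 fold change -0.33 ± 0.11). Wnt4 was at 1.28 and 1.53 CPM without Dox and 3.08 and 3.02 CPM with it, a log2 fold change of 1.11 ± 0.56 on 13 and 34 counts. Wnt7b was at 37.1 and 41.4 CPM against 36.3 and 26.0 CPM with Dox, and Wnt3 at 1.49 and 3.51 against 2.27 and 2.02 CPM. Wnt8a had 4 counts without and 4 with Dox. Fibroblast markers were at 745 to 937 CPM summed with Dox against 1199 to 1211 CPM without, with 5 of 21 fitted markers called lower, and their part in the Sfrp1 value was not tested.

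Ordered by group mean, Wnt3 was highest after RA (50.5 CPM in WT, 46.2 in KO), followed by KO1 of set 1 (23.2) and set 2 (21.6), KO2 of set 2 (17.3) and set 1 (14.9), set 2 WT (5.74), KH2 without and with Dox (2.498 and 2.14) and set 1 WT (0.418). Within that order the 2 RA groups, the 4 KO groups and the KH2 groups overlapped their neighbours or lay within the spread of set 2 KO2, whereas set 2 WT lay below every KO sample. Sfrp1 had another order, with KH2 without Dox highest (252 CPM), then KH2 with Dox (199.6), RA in WT (147) and in KO (89.5), set 2 WT (56.8) and then the set 2 KO and set 1 groups between 32.4 and 38.0, which overlapped.

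By Pearson's r of log2(CPM + 1) over the 19 samples, among named genes with a group mean of at least 10 CPM, the genes most like Wnt3 were Acta1 (0.977), Lpar4 (0.968) and Mtch1 (0.957). Most like Wnt4 were Krt8, a keratin gene (0.964), Prickle1, a planar polarity gene (0.956), and Pkdcc (0.95). Wnt8a was most like Slc7a8 (0.942), Vrtn (0.914) and the streak gene Evx1 (0.912). Wnt7b was most like Slc4a11 (0.939), Pga5 (0.93) and Snhg9 (0.93), and Sfrp1 was most like Igfbp7 (0.948), Cyba (0.944) and Pfdn5 (0.94). For Wnt6 (Tmtc4, 0.976), Wnt10b (Edem3, 0.973) and Dkk2 (Dlgap4, 0.976) the RA samples lie far from all others, which such an r mostly reads. Among the 10 genes themselves Wnt10b and Dkk2 had r = 0.941, Wnt6 and Dkk2 0.926, and Wnt6 and Wnt10b 0.911. These are descriptions over samples that share depth, set and treatment, and Dkk1 and Sfrp2 did not reach 10 CPM in any group.

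The rest of the pathway was taken as 57 further genes in 4 family lists. Over both sets 31 could be fitted, of which 9 rose in KO, 3 fell and 19 did not pass edgeR's quasi-likelihood test. Of all genes tested 10.4% were higher and 8.63% lower. The median log2 fold change of the 31 was 0.36 against -0.018 for all genes. Of the 13 genes in the ligand list 3 could be fitted: Wnt9a rose by 1.41 ± 0.28 (adjusted p = 0.000825), Wnt11 by 1.38 ± 0.46 (adjusted p = 0.0378) and Wnt5a by 0.81 ± 0.29 (adjusted p = 0.048). Their mean levels were 9.09, 4.11 and 6.91 CPM in KO against 3.11, 1.55 and 3.61 CPM in WT. A low gene passes the low-count filter more readily where KO is high, so nothing is read from all 3 having risen. The Wnt11 call was lost without 1a, 1c or 1e, with each library as its own sample (adjusted p = 0.0657), with the replicate number as a block (adjusted p = 0.0654) and in DESeq2 (adjusted p = 0.0573), and Wnt11 was under the low-count filter without any 1 of the 6 untreated set 2 samples. The Wnt5a call was lost without any 1 of 11 samples and with no low-count filter (adjusted p = 0.0963). Wls, the gene of the cargo receptor that carries Wnt proteins out of the cell, rose by 1.33 ± 0.25 (adjusted p = 0.00127), while Porcn, which encodes the acyltransferase that lipid-modifies them, fell by 0.54 (SE 0.15, adjusted p = 0.0136, and 0.0885 without 2b). Wls was at 7.52 and 8.61 CPM in set 1 WT and 38.7 to 60.9 CPM in set 1 KO, with no overlap.

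Of the 5 fitted antagonists outside the 10 genes, Notum, which encodes an enzyme that removes the lipid from Wnt proteins, fell by 1.42 (SE 0.26, adjusted p = 0.000569) and Igfbp4 rose by 0.97 ± 0.25 (adjusted p = 0.0147, 0.0639 without 1a and 0.0506 without 1b). Of 20 fitted receptor and surface genes 4 rose (Fzd10, Ptk7, Fzd2 and Ryk), 1 fell and 15 did not pass. The one that fell was Fzd5, from 86.1 and 106.8 CPM in set 1 WT to 23.03 to 31.0 CPM in set 1 KO and from 156 and 169.9 CPM in set 2 WT to 89.65 to 101.5 CPM in set 2 KO. Its log2 fold change was -1.18 ± 0.15 (adjusted p = 7.24e-06), and within library groups A and B of set 2 it was -0.75 and -0.73 (edgeR adjusted p = 0.00328 and 1.03e-06). The p-values within A and B tend to be too small, as the groups were cut from these same libraries. Fzd10 rose by 1.15 ± 0.24 and Fzd2 by 0.90 ± 0.24, the latter not without 1b (adjusted p = 0.0591), and the Ptk7 call (0.98 ± 0.29) was lost without any 1 of 10 samples. With each library as its own sample 8 pathway genes passed in place of 12, and Fzd2, Porcn and Ptk7 did not pass (edgeR adjusted p = 0.0551, 0.0533 and 0.0986).

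In set 1, 8 of 23 fitted pathway genes rose and 2 fell, beside 7.19% and 5.1% of all genes tested. In set 2, 3 of 41 rose (Wnt9a, Wls and Ryk) and 3 fell (Notum, Fzd5 and Porcn), beside 5.64% and 3.55%. The set 2 counts are close to these shares and are not read as a result about the pathway. Calls were 1 higher and 2 lower in library group A and 7 higher and 1 lower in B. Of all genes tested 2.45% were higher and 1.61% lower in A, and 7.27% and 6.4% in B. Wls in set 2 was 0.21 higher in A (adjusted p = 0.636 by edgeR) and 1.23 in B (adjusted p = 7.11e-11). As A and B were cut by how alike these same libraries were, p-values within them tend to be too small. The count in set 2 was 1 without 2b, 2 without 2a or 2e and 15 without 2f. It was 4 in set 1 without 1a and 5 without 1e.

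Transcripts that report β-catenin activity in many tissues did not move as 1 group. Sp5, a direct target, rose by 2.81 ± 0.51 on the log2 scale (adjusted p = 0.0033), from 1.67 and 0.861 CPM in set 1 WT to 48.5 to 62.5 CPM in set 1 KO and from 5.49 and 7.29 CPM in set 2 WT to 9.59 to 53.9 CPM in set 2 KO. Lef1, which is both a target and a TCF/LEF factor, fell by 0.78 (SE 0.17, adjusted p = 0.00296). Axin2, the general feedback target, was at 11.7 and 14.6 CPM in set 1 WT and 11.4 to 26.5 CPM in set 1 KO, with overlap, and did not pass over both sets. In all 1 of 5 fitted readouts rose, 1 fell and 3 did not pass. In set 2 alone neither Sp5 nor Lef1 passed edgeR's test. Lef1 had a log2 fold change of -0.29 there (adjusted p = 0.204) against -1.43 in set 1, and Sp5 2.28 (adjusted p = 0.0927) against 5.35, and whether the sets differ was not tested. The set 1 value of Sp5 rests on 3 WT counts, with both WT samples under the floor.

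With RA, 23 of 48 fitted pathway genes rose and 6 fell in WT, beside 24.8% and 22.5% of all genes tested. In KO 23 rose and 7 fell, beside 28.3% and 26.8%. All p-values that follow are adjusted values of edgeR's quasi-likelihood test. Wls rose from 46.5 and 40.3 CPM to 1170 CPM in WT (log2 fold change 4.76 ± 0.27, adjusted p = 4.85e-08) and to 862 and 978 CPM in KO (3.38 ± 0.18, adjusted p = 1.92e-08). Wnt9a rose from 3.55 and 2.92 CPM to 97.9 CPM in WT (4.96 ± 0.26, adjusted p = 1.41e-14) and to 68.8 and 79.9 CPM in KO (3.29 ± 0.17). The ligand genes Wnt7a (3.69 ± 0.57 in WT, on 43 and 11 counts) and Wnt2 (2.99 ± 0.72, on 20 and 8 counts) rose too. Leaving out each sample in turn, the Wnt7a value in WT ranged from 3.26 to 8.54. The R-spondin gene Rspo3, which encodes an enhancer of Wnt signalling, rose as well (4.06 ± 0.52 in WT and 2.37 ± 0.33 in KO). Of the receptors 12 of 25 rose in WT and 3 fell. Fzd1 rose by 4.44 ± 0.44 (adjusted p = 2.88e-09), and Fzd5 fell by 2.81 (SE 0.19, adjusted p = 3.25e-12). Porcn fell in WT by 2.77 (SE 0.29) and in KO by 1.17 (SE 0.18). Among readouts Nkd1 rose by 3.30 ± 0.45 and Axin2 by 2.12 ± 0.30 in WT, and Lef1 fell by 1.09 (SE 0.23). Sfrp4 had 0 counts in the WT RA sample and 29 in untreated WT.

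Of those 48 genes 0 passed for KO against WT after RA in edgeR and 0 in DESeq2, with 6 at an unadjusted p under 0.05. Of 32 fitted genes in KH2 0 passed for Dox in either tool, with 7 at an unadjusted p under 0.05, among them the Frizzled genes Fzd2, Fzd5, Fzd7 and Fzd10. Between the KO lines 0 of 23 fitted genes in set 1 and 0 of 41 in set 2 passed in either tool, with 0 and 1 at an unadjusted p under 0.05.

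**Figure D4:**
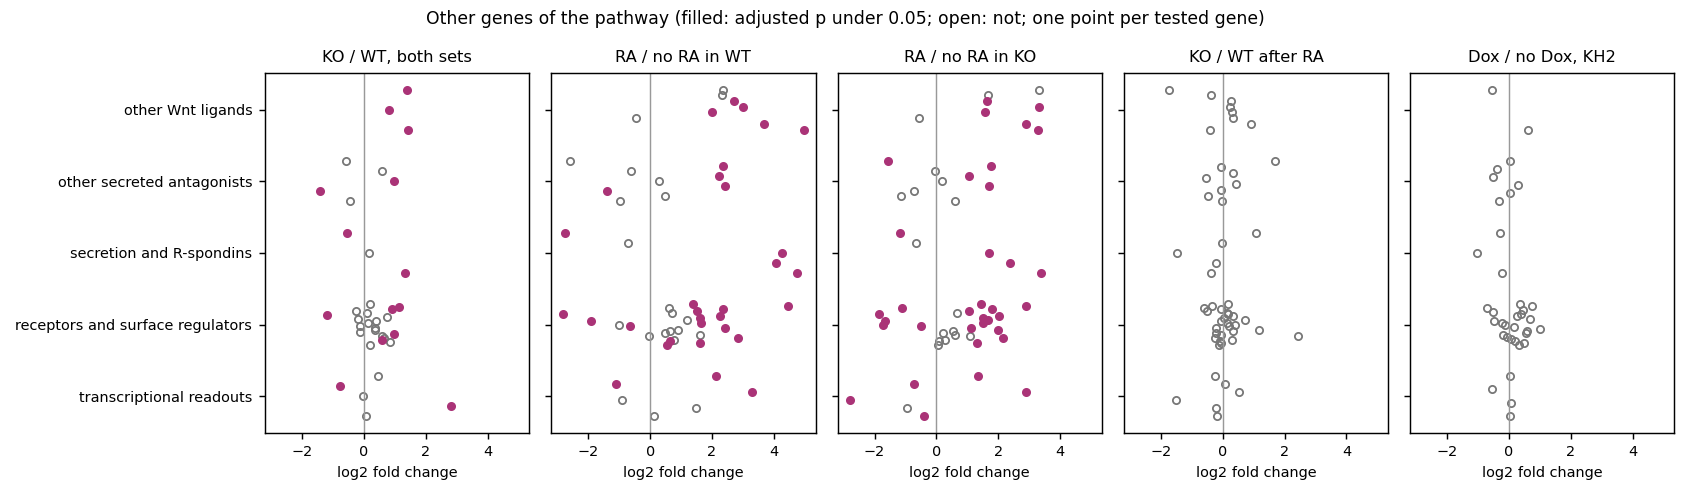
Log2 fold change (x axis) of each fitted gene in 5 lists of other Wnt pathway genes (y axis) for 5 comparisons, filled where the adjusted p was under 0.05. Genes with 0 counts in a group are not drawn. Filled points are 10 to the right and 4 to the left of 0 for KO against WT over both sets, most ligands and receptors lie right of 0 after RA, and no point is filled after RA between genotypes or for Dox.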

How the data were processed

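The authors deposited raw counts per gene. The file headers name featureCounts 1.6.0 and GRCm38 gene models of Ensembl release 97, and the submitters' processing notes list STAR 2.5.4b and Subread 2.0.0. The sources used here give neither the strand setting of the counting nor the trimming. Reads shared by near-identical or overlapping genes may be lost or misassigned.

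Of 55573 genes 55394 had a symbol, taken by gene ID. The 23 libraries formed 19 samples, because 4 title codes had 2 libraries each, which were summed. These differed by more than sampling noise (chi-square per degree of freedom 4.46 to 8.73), so each library was also used as its own sample. Samples held 806412 to 10217040 counts, and intervals and floors of 3 counts cover counting error only. Tests were edgeR 4.0.16 quasi-likelihood tests after TMM scaling. Low genes were removed by filterByExpr (at least 10 counts, total at least 15), and p-values were adjusted by Benjamini-Hochberg over all genes tested (threshold 0.05). The fit over both sets held a term for set, and RA contrasts came from 1 fit of all set 2 samples. Fits were tested on simulated data.

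The 10 genes and the gene lists were chosen with earlier results of these data known, and p-values are not given for the 10 genes in the contrasts that chose them. Other genes named were, for each list and comparison, up to 3 highest and 3 lowest among called genes, and the 3 genes most like each of the 10. Single genes named beside these (T, Col1a1, Col1a2, Gata4, Sox17, Foxa2, Evx1, Axin2, Wnt1, Wnt10a) were markers or neighbours. Alternatives were the size factors and the Wald test of DESeq2 1.42.0, keeping all low genes, treating each library as a sample, the replicate number as a block, KO1 alone as RA control and each sample left out. The split into library groups A and B, from the first principal component after group means were removed, was chosen after seeing the data. It puts like libraries together, so p-values and calls within A or B rest on a spread that is too small. Promoter sequences are from RefSeq, GRCm38.p6. R 4.3.3, Python 3.11.15, pandas 2.3.3 and matplotlib 3.10.9 were used.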

Additional observations from a re-analysis of the deposited data

Results flagged for a closer look

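Among the 4 KO samples of set 1, Wnt4 in 1 sample of KO1 (1c) stood apart at 22.1 CPM, while the other 3 were between 16.45 and 17.05 CPM. The gap to the nearest sample was 0.895 of the whole range. In all 20 such groups of 4 samples were examined, and chance alone marks about 1 in 20. The set 1 call of Wnt4 was kept without this sample.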

How the results depend on the processing

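No paired structure was found: samples with the same number in different groups did not deviate together (r from -0.144 to 0.108 over 7 pairs of groups), so the numbers were not taken as pairs. With the replicate number as a block the count of called genes was 724 for Dox, against 229 without it, with 6 pathway genes against 0, and 5 against 3 for KO2 against KO1 in set 2; Sfrp1 was then called lower with Dox and no longer over both sets. No other count of calls moved by over 1.5 times with the block.

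For KO against WT in set 2, main count 1165 genes and 6 pathway genes, every library as its own sample gave 759 and 1, library group A alone 434 and 3, group B alone 1583 and 8, the library group as a covariate 1604 and 8, and no low-count filter 10 pathway genes. After RA the count was 58, 8 with each library taken as a sample and 94 with no filter. For Dox the DESeq2 Wald test gave 127 genes, and no filter 1 pathway gene. For KO2 against KO1 no filter gave 25 in set 1, against 1, and 22 in set 2, against 3, where every library as its own sample gave 1.

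Leaving out each sample in turn gave 570 to 1388 genes and 4 to 10 pathway genes in set 1 (lowest without 1a), and 195 to 2335 and 1 to 15 in set 2 (lowest without 2b, highest without 2f). It gave 15 to 98 after RA (lowest without 2i, highest without 2f) and 6 to 234 with 0 to 2 pathway genes for Dox (lowest without KH2 sample 2). For KO2 against KO1 it gave 1 to 196 with 0 to 3 pathway genes in set 1 (highest without 1c) and 1 to 56 with 0 to 3 in set 2 (highest without 2e). The WT RA sample cannot be left out. In the line comparisons, where none passed, the log2 difference changed sign in some of these fits: it ranged in set 1 from -0.43 to 0.05 for Wnt4 and -0.33 to 0.0 for Sfrp1, and in set 2 from -1.29 to 0.29 for Wnt3, -0.93 to 0.02 for Wnt4, -0.08 to 0.0 for Wnt6, -0.94 to 0.24 for Wnt8a, -0.15 to 0.79 for Dkk1, -2.02 to 0.08 for Dkk2, -0.67 to 0.14 for Sfrp1 and -0.18 to 1.19 for Sfrp2. The cause of these differences was not tested. Of 816 values of the 10 genes under other settings 756 kept direction and size, 48 moved by over 1 SD and 12 changed sign, and of 934 values of named pathway genes 124 lost their call and 810 kept it. Set 1 depth limits levels under 3.72 CPM.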
